A study of Mus musculus with 6 samples.

Results

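The genes described here are 9 transcripts induced through SMAD2 and SMAD3, the transcription factors that TGF-beta and activin activate. They are Ctgf, Cyr61, Thbs1, Tgfbi, Ltbp2, Pmepa1, Skil, Ski and Tgif1, chosen by name and matched by symbol in a table of 17551 genes. All 9 were present in the table and all 9 passed the filter on low counts. RNA was sequenced from mouse neurospheres, balls of neural precursors that float in medium containing EGF and FGF, from C57BL/6 mice. The G328V group held 3 libraries of neurospheres with the genotype ACVR1 G328V, and the WT group held 3 libraries with the genotype ACVR1 WT, numbered 1, 3 and 70A. ACVR1 is a receptor kinase that responds to bone morphogenetic proteins (BMPs), and G328V puts valine in place of glycine in it. The groups are also called NPAC and NP by the submitters, letters that the labels do not spell out, so any other alleles of either group are unknown here, as are ages. The labels call the libraries biological replicates but tie none to an animal or culture, and the p-values cover only the spread among these samples, which may be partly technical.

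TGF-beta and activin bind paired type II and type I receptors, which phosphorylate SMAD2 and SMAD3. These enter the nucleus with SMAD4 and bind short DNA motifs beside other factors, switching on matrix and growth-control genes. ACVR1 belongs to the neighbouring BMP branch, which signals mainly through SMAD1, SMAD5 and SMAD9 and shares SMAD4 with the TGF-beta branch. Several of the genes described here feed back on the pathway. SKI, its relative SKIL (also called SnoN) and TGIF1 are nuclear corepressors of SMAD2 and SMAD3, and PMEPA1 is a membrane protein that keeps SMAD2 and SMAD3 from the receptor. The others are secreted. CTGF and CYR61, also named CCN2 and CCN1, and thrombospondin 1 (Thbs1) are matricellular proteins, TGFBI is an adhesion protein of the matrix, and LTBP2 is a microfibril-associated relative of the proteins that store latent TGF-beta. Ctgf and Cyr61 are also standard targets of the YAP and TEAD factors of the Hippo pathway.

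The RefSeq promoter table (build GRCm38.p6) held entries for 5 of the 9 genes, namely Cyr61, Ski, Ltbp2, Tgfbi and Tgif1, and none for Ctgf, Skil, Pmepa1 and Thbs1. Upstream sequences of 3 genes are shown because, among those with an entry and at least 1 CPM on average, Tgfbi and Cyr61 had the widest range of expression over the libraries and Tgif1 the narrowest. Capitals mark the SMAD box CAGAC (or GTCTG on the other strand) and the TEAD site GGAATG (or CATTCC). The Cyr61 stretch lies on the minus strand at chr3:145649986-145650235, the Tgfbi stretch on the plus strand at chr13:56609336-56609522, and the Tgif1 stretch, the most upstream of its 5 listed starts, on the minus strand at chr17:70853547-70853782.
Cyr61: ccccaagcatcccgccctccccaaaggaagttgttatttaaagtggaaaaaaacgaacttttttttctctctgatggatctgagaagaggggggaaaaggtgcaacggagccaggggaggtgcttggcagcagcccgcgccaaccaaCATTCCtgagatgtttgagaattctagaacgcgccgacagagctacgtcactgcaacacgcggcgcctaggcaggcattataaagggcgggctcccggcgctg
Tgfbi: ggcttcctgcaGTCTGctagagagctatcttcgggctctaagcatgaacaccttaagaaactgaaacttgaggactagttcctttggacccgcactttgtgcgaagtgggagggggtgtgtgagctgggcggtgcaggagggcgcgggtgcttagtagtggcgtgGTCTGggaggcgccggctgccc
Tgif1: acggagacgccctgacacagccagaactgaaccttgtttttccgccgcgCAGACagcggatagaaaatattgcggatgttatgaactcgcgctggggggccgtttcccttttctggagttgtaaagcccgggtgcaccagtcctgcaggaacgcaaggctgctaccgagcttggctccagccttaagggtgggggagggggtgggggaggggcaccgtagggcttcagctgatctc
In the 250 bases before each start, on both strands, Cyr61 held 1 TEAD site, beginning 103 bases before the start, and no SMAD box. Tgfbi held 2 SMAD boxes, beginning 239 and 85 bases before the start, and this Tgif1 start held 1, beginning 201 bases before it. Ltbp2 held 2 SMAD boxes, and Ski held neither motif. Of 32851 windows of that length in the table, 42.2% held a SMAD box and 12.6% a TEAD site, so the SMAD box is common among promoters. AP-1 sites (TGANTCA) and CArG boxes, present in 6.75% and 1.47% of the windows, were in none of these genes' windows. A match of letters is a description and not a measured binding site.

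Acvr1 itself measured 381 ± 233 CPM in G328V and 77.7 ± 30.9 CPM in WT (SD, n = 3 each), without overlap. These counts do not separate alleles. Total counts ranged from 115953495 to 191115532 per library. The groups were also separated by sex-linked genes, with at least 76093 counts of Xist in each G328V library and at most 206 in each WT library, so sex-linked expression and genotype cannot be told apart in any comparison below. WT replicate 1 stood apart, with 51237 counts of the oligodendrocyte-lineage gene Olig2 against at most 161 elsewhere. The progenitor markers Sox2 and Vim were high in all 6 libraries, at 134 to 237 CPM and 1720 to 3190 CPM, whereas Fabp7, Hes5 and Slc1a3 were at 0 or nearly so in some libraries. CPM are counts scaled to a common library total after TMM, a correction for differences in composition. In bulk samples, fewer expressing cells and less RNA per cell cannot be told apart.

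Across the 9 genes, no common direction was found in G328V neurospheres. The log2 difference, G328V minus WT, was positive for 4 and negative for 5, with a median of -0.05, against 0.00 over all 14643 tested genes, of which 49.7% were positive. None of the 9 passed edgeR's quasi-likelihood test at a false discovery rate of 0.05 (each adjusted p = 0.997), where 0% of all tested genes passed. At an unadjusted edgeR p under 0.05 there were 2 of the 9, Pmepa1 as lower and Cyr61 as higher, against 4.06% of all tested genes, 2.17% as lower and 1.88% as higher. DESeq2 called 0 of the 9, while it called 1.05% of all genes. At an unadjusted DESeq2 p under 0.05 there were 3 of the 9, against 6.95% of all genes. The limma-voom test called 0 of the 9 and 0% of all tested genes, with 1 of the 9 at an unadjusted p under 0.05, against 3.94% of all tested genes. The groups did not overlap for 1 of the 9, Pmepa1, and for 9.7% of all tested genes, 4.45% with G328V lower and 5.25% with G328V higher.

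**Figure D1:**
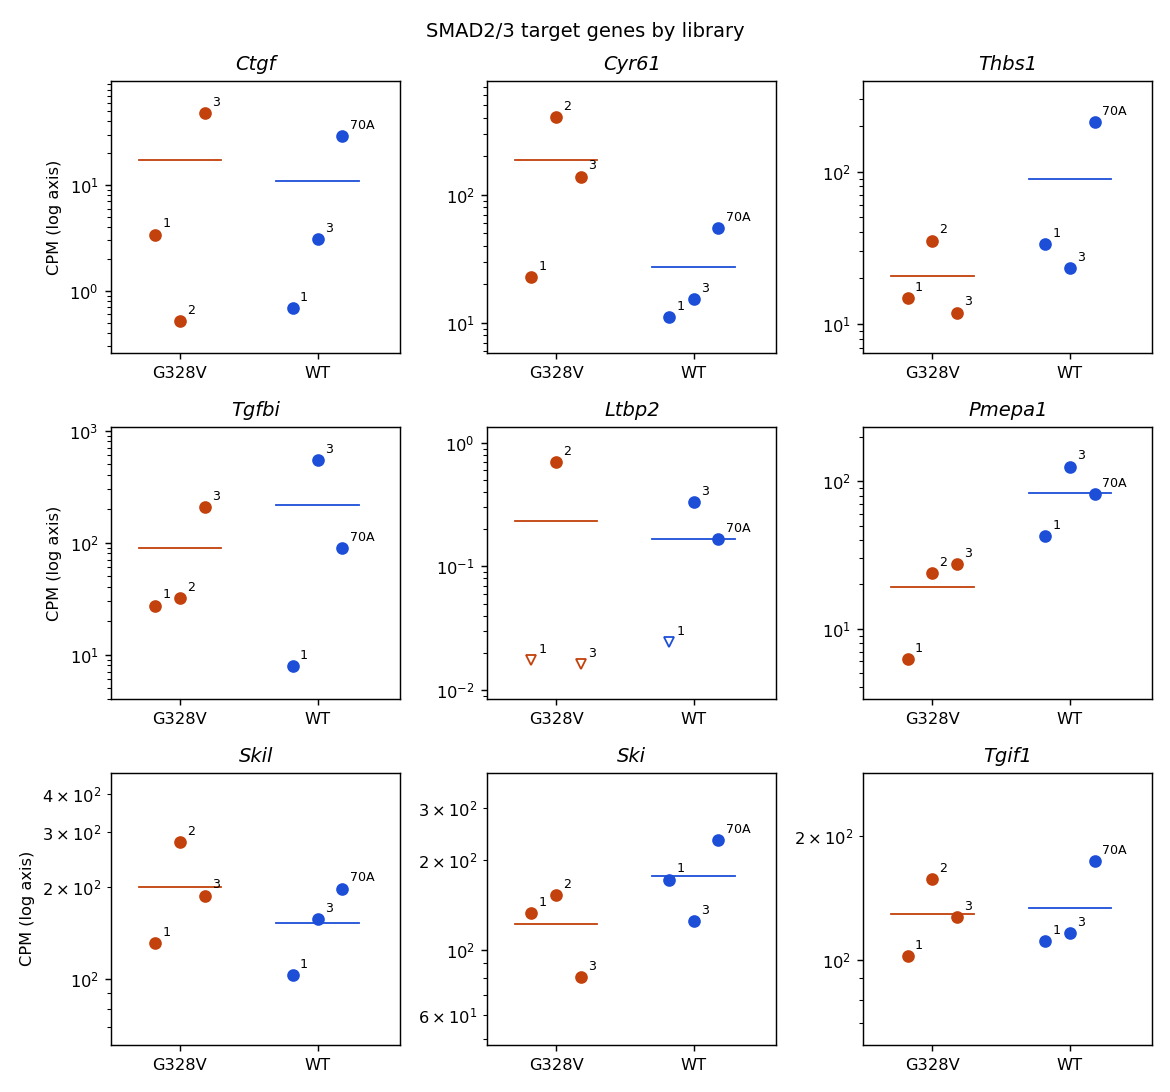
Expression of each gene in CPM on a log axis, 1 point per library labelled with its replicate, with a line at the group mean. Open triangles mark libraries with 0 counts, drawn at the level of 3 counts. Only Pmepa1 has all 3 G328V libraries below all 3 WT libraries.

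Pmepa1, the membrane-bound feedback inhibitor, was lower in every G328V library than in any WT library. It measured 6.20, 23.9 and 27.3 CPM for G328V 1, 2 and 3, against 42.7, 126 and 82.1 CPM for WT 1, 3 and 70A. The highest G328V library thus stayed below the lowest WT library, and G328V replicate 1 was the lowest of all. The mean was 19.1 ± 11.3 CPM for G328V against 83.7 ± 41.9 CPM for WT (SD, n = 3 each), a ratio of 4.37 in favour of WT. The log2 difference was -2.13 with a 95% interval of -3.76 to -0.50. Its unadjusted edgeR p was 0.0184, rank 218 of 14643 genes, and it did not pass after adjustment. DESeq2 gave -2.15 with an adjusted p of 0.159. The difference kept its sign when each library was left out in turn, from -2.48 without G328V replicate 3 to -1.71 without G328V replicate 1, and the unadjusted edgeR p was 0.0543 without WT replicate 3. Pmepa1 lies on chromosome 2 from 173224458 to 173276533 on the minus strand (GRCm38, as for all gene positions here).

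Cyr61, a secreted integrin ligand of the CCN family, had the largest positive difference of the 9. It measured 22.9, 405 and 139 CPM for G328V 1, 2 and 3, against 11.1, 15.3 and 55.1 CPM for WT 1, 3 and 70A. G328V replicates 2 and 3 were above every WT library, while G328V replicate 1 lay below WT replicate 70A, so the groups overlapped. The means were 189 ± 196 CPM in G328V and 27.2 ± 24.3 CPM in WT (SD, n = 3 each). The log2 difference was 2.80 with a 95% interval of 0.05 to 5.55 and an unadjusted edgeR p of 0.0470. Without G328V replicate 2, which held the highest value, the difference was 1.58 with an unadjusted edgeR p of 0.184. DESeq2 gave an adjusted p of 0.299. The gene lies on chromosome 3 from 145646976 to 145649981 on the minus strand.

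Ctgf, the other CCN gene of the list, did not follow Cyr61. It measured 3.40, 0.515 and 48.0 CPM for G328V 1, 2 and 3, against 0.683, 3.06 and 29.1 CPM for WT 1, 3 and 70A. Each group held 1 high library, G328V replicate 3 and WT replicate 70A, and 1 library under 1 CPM. The spread was 93.2-fold within G328V and 42.7-fold within WT, and the log2 difference of 0.66 had a 95% interval of -3.78 to 5.10. Without G328V replicate 3 the difference was -2.49. In G328V replicate 2 Cyr61 was at its highest level and Ctgf at its lowest. Per kilobase of exon, Cyr61 exceeded Ctgf 1114-fold in that library and 2.68-fold to 23-fold in the other 5. Ctgf lies on chromosome 10 from 24595442 to 24598683 on the plus strand, where the annotation places a minus-strand gene, Gm15270, over part of it. Gm15270 is not in the HTSeq table, and reads of both strands may be counted together.

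Thbs1, which encodes an activator of latent TGF-beta, was low in most libraries and high in 1. It measured 14.8, 35.3 and 11.9 CPM for G328V 1, 2 and 3, against 33.5, 23.4 and 212 CPM for WT 1, 3 and 70A. Apart from WT replicate 70A, the groups covered much the same range. The log2 difference was -2.12 with a 95% interval of -4.46 to 0.22 and an unadjusted edgeR p of 0.0690. Without WT replicate 70A it was -0.48. DESeq2 gave an unadjusted p of 0.0273 and an adjusted p of 0.530. Thbs1 lies on chromosome 2 from 118111876 to 118127133 on the plus strand, and the minus-strand gene Gm29233, not in the HTSeq table, overlaps it.

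Tgfbi, an adhesion protein first found as a TGF-beta-induced transcript, was highest in WT replicate 3 and lowest in WT replicate 1. It measured 27.4, 31.8 and 209 CPM for G328V 1, 2 and 3, against 7.90, 547 and 89.5 CPM for WT 1, 3 and 70A. The WT libraries held both the lowest and the highest value, 69.2-fold apart, and all 3 G328V values lay between them. The log2 difference of -1.27 had a 95% interval of -4.84 to 2.31, and without WT replicate 3 it was 0.86. Tgfbi lies on chromosome 13 from 56609523 to 56639562 on the plus strand.

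Ltbp2 was hardly detected. Its counts were 0, 84 and 0 for G328V 1, 2 and 3, against 0, 58 and 29 for WT 1, 3 and 70A. A count of 0 allows up to 3 counts, or 0.0163 to 0.0244 CPM over the libraries with 0 counts, for counting error only. That limit takes counts as independent, and a limit set in read pairs would lie higher. The log2 difference of 0.48 had a 95% interval of -6.14 to 7.11, so no difference could be detected at this depth. The deposited Cufflinks table gave Ltbp2 26 fragments in G328V replicate 1 and 13 in WT replicate 1, where the HTSeq table gave 0 counts. For the other 8 genes the tables ran in parallel, with 1.82 to 2.00 counts per fragment in every library. Ltbp2 lies on chromosome 12 from 84783212 to 84876532 on the minus strand and overlaps the plus-strand gene D030025P21Rik. Whether counting used strand is not given, so Ltbp2 is uncertain.

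The corepressors Skil, Ski and Tgif1 were expressed in every library at similar levels. Skil measured 131, 279 and 187 CPM for G328V 1, 2 and 3, against 103, 157 and 197 CPM for WT 1, 3 and 70A. Ski measured 133, 153 and 80.5 CPM over the G328V libraries against 172, 125 and 234 CPM over the WT ones, in the same order. Tgif1 measured 102, 157 and 127 CPM over the G328V libraries against 111, 116 and 173 CPM over the WT ones. The groups overlapped for each of the 3, and the highest library exceeded the lowest by 2.71-fold, 2.91-fold and 1.70-fold. The log2 difference of Skil was 0.39 with a 95% interval of -0.53 to 1.31. That of Ski was -0.54, with an interval of -1.40 to 0.33. For Tgif1 it was -0.05, with an interval of -0.75 to 0.64, the narrowest of the 9. Skil lies on chromosome 3 from 31095058 to 31122577 on the plus strand, Ski on chromosome 4 from 155154075 to 155222592 on the minus strand, and Tgif1 on chromosome 17 from 70844205 to 70853546 on the minus strand.

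**Figure D2:**
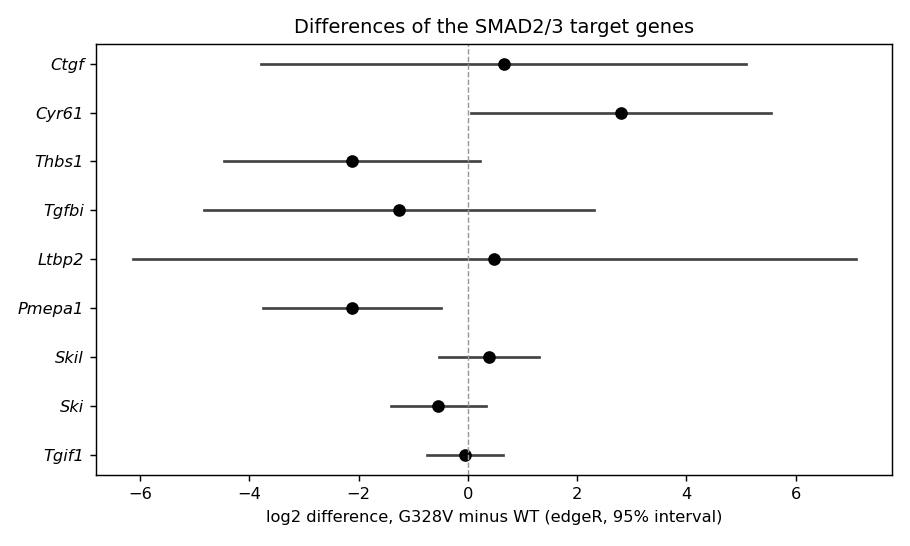
Log2 difference, G328V minus WT, of each gene from the edgeR fit, with its 95% interval as a bar. The intervals of Pmepa1 and Cyr61 do not include 0 before adjustment over all genes, and those of Skil, Ski and Tgif1 are the narrowest.

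The secreted products ranged far over the 6 libraries and the nuclear corepressors did not. The highest library exceeded the lowest at least 4-fold for 5 of 5 secreted products and 0 of 3 corepressors, against 46.5% of all tested genes. The folds were 93.2 for Ctgf, 69.2 for Tgfbi, 36.4 for Cyr61 and 17.8 for Thbs1, and Ltbp2 had 0 counts in 3 libraries. Pmepa1 ranged 20.4-fold. Over all tested genes the median fold was 3.51, after adding a prior count of 2. These counts describe 9 chosen genes and were not tested.

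**Figure D3:**
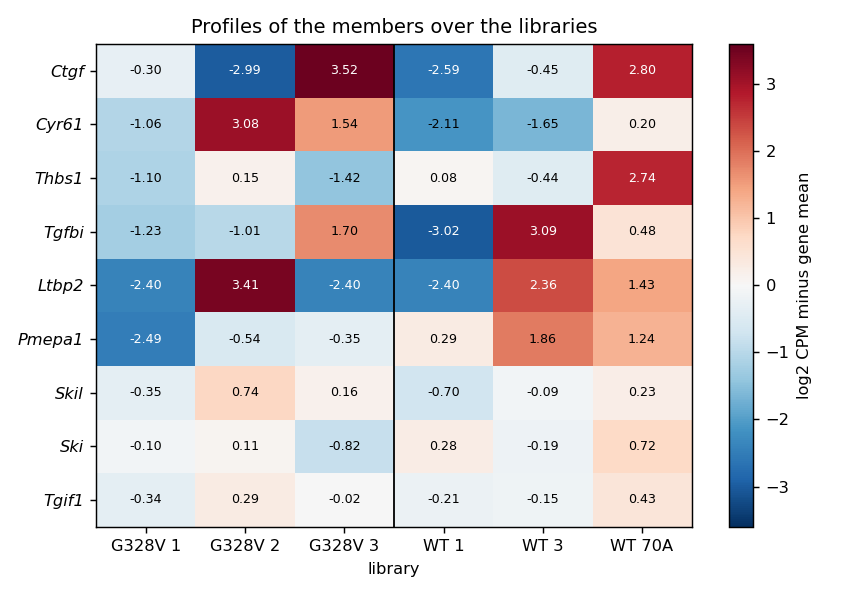
Each gene's log2 CPM minus its mean over the 6 libraries, by library, red for above and blue for below the gene's mean. The highest library was G328V replicate 3 for Ctgf, G328V replicate 2 for Cyr61, Ltbp2 and Skil, WT replicate 3 for Tgfbi and Pmepa1, and WT replicate 70A for Thbs1, Ski and Tgif1.

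WT replicate 70A was above each gene's mean for all 9 genes, from 0.20 for Cyr61 to 2.80 for Ctgf on the log2 scale. WT replicate 1 had the lowest level of Cyr61, Tgfbi and Skil, and G328V replicate 1 that of Pmepa1 and Tgif1. Oligodendrocyte-lineage markers summed to 1050 CPM in WT replicate 1 and to 14.5 to 304 CPM elsewhere, and their part in the low values there was not tested. The profiles of Skil and Tgif1 were the closest pair of the 9, with a root mean square distance of 0.29 on the log2 scale after centring each gene on its mean. The distance was 2.88 between Ctgf and Cyr61 and 3.88 between Ctgf and Ltbp2, the farthest pair. Per kilobase of exon in the GENCODE vM21 annotation, median levels over the 6 libraries ran from 25.7 CPM for Ski through 21.6 for Tgif1, 19.3 for Cyr61, 17.7 for Skil and 16.1 for Tgfbi to 7.12 for Pmepa1, 4.68 for Thbs1, 1.13 for Ctgf and 0.0102 for Ltbp2. The ranges of neighbours in this order overlapped in every case except Ctgf and Ltbp2, where the lowest Ctgf library, at 0.180 CPM per kilobase, lay above the highest Ltbp2 library, at 0.0853.

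Among 8846 genes with a mean of at least 10 CPM, those with the profiles most like each gene over the 6 libraries were found by the same distance. They were Phex (0.45) and Rab27b (0.86) for Ctgf, Abcb1b and Pparg (both 0.87) for Cyr61, and Lif (0.58) and Meis1 (0.59) for Thbs1. For Tgfbi they were Endod1 (0.57) and Tnfrsf10b (0.73), and for Pmepa1 Pyhin1 (0.44) and Slc8a1 (0.45). The corepressors, whose levels varied less, had closer matches, Pif1 (0.09) and Ccnb2 (0.10) for Skil, Slc4a7 (0.12) and Plcg1 (0.13) for Ski, and Myl12b and Lrfn4 (both 0.08) for Tgif1. The median distance to all these genes was 2.47 for Ctgf and 0.52 for Tgif1. These distances rest on 6 libraries and describe likeness of level only.

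The rest of the TGF-beta pathway gave no edgeR call in either direction. Of 9 tested ligand genes, 4 were positive and 5 negative, and edgeR and DESeq2 both called 0, with 1 at an unadjusted edgeR p under 0.05. That gene, Inhba, the activin A subunit, measured 2.69, 1.21 and 1.44 CPM for G328V 1, 2 and 3, against 0.699, 54.7 and 29.0 CPM for WT 1, 3 and 70A. WT replicates 3 and 70A were high, while WT replicate 1 was below every G328V library. The log2 differences of Tgfb3 and Lefty1, a ligand and an inhibitor of Nodal signalling, were 0.65 and -3.83 with standard errors of 0.49 and 2.74.

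Of 8 tested receptor genes, 5 were positive and 3 negative, edgeR and DESeq2 called 0, and 1 had an unadjusted edgeR p under 0.05. Acvr1c, which encodes the type I receptor ALK7, had 63, 36 and 20 counts for G328V 1, 2 and 3, against 0, 0 and 1 for WT 1, 3 and 70A, at most 0.367 CPM in any library. Acvr2b, an activin type II receptor, spanned 5.60 to 9.05 CPM among G328V libraries against 1.95 to 4.86 CPM among WT ones, with no overlap. Tgfbr2, the TGF-beta type II receptor, measured 13.2, 105 and 27.4 CPM over the G328V libraries against 81.0, 177 and 157 CPM over the WT ones, with G328V replicate 2 inside the WT range.

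Among 6 tested SMADs and adaptors, 2 were positive and 4 negative, and edgeR and DESeq2 called 0. Smad2 and Zfyve16, the 2 with an unadjusted edgeR p under 0.05, were lower in every G328V library than in any WT library. The same held for 4.45% of all tested genes. Smad2, the transducer itself, measured 80.0, 76.2 and 81.8 CPM for G328V 1, 2 and 3, against 106, 109 and 114 CPM for WT 1, 3 and 70A. Its libraries hardly varied within a group, and its log2 difference of -0.47 (standard error 0.19) had an unadjusted edgeR p of 0.0497. Zfyve16, which encodes the endosomal protein endofin, had a difference of -0.77 (standard error 0.31) and an unadjusted edgeR p of 0.0474. Smad3 and Smad4 differed by -0.10 and 0.21, with overlapping groups. Smad7, an inhibitory SMAD induced by both branches, had a difference of 1.53 (standard error 1.00) and overlapping groups.

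Of 8 tested genes of TGF-beta latency and activation, 3 were positive and 5 negative. EdgeR called 0, with 1 at an unadjusted p under 0.05, and DESeq2 called 1, Itgb8, an integrin subunit that activates latent TGF-beta (adjusted p = 0.0492). Itgb8 reached 57.8 CPM in WT replicate 1 and spanned 0.859 to 6.89 CPM in the other 5 libraries. Ltbp3 and Ltbp1, the latent TGF-beta binding proteins, gave differences of -0.98 and -1.12 (standard errors 0.49 and 0.76), and their groups overlapped.

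Of 22 other TGF-beta-induced genes, 11 were positive and 11 negative, with a median log2 difference of -0.08. EdgeR called 0, with 2 at an unadjusted p under 0.05, and DESeq2 called the same 2 genes as lower, Il11 and Lox. Il11, a cytokine, measured 0.758, 0.258 and 0.256 CPM for G328V 1, 2 and 3, against 4.94, 1.42 and 4.17 CPM for WT 1, 3 and 70A (DESeq2 adjusted p = 0.0233). Every G328V library was below every WT library, at low levels throughout. Lox, a collagen cross-linking enzyme, had 0 counts in all 3 G328V libraries and 166, 12 and 20 counts in WT replicates 1, 3 and 70A. Against a floor of 3 counts over the G328V group, the pooled WT level was 66.4-fold higher (DESeq2 adjusted p = 0.0461). Most WT counts came from WT replicate 1. Without WT replicate 1, a choice made after seeing the data, the pooled WT level was 14.5-fold higher. A read pair gave close to 2 counts, so a floor set in pairs would lie higher and both folds would be smaller. The folds also leave out the spread between libraries. Postn, another TGF-beta-induced matrix protein, reached 67.9 CPM in G328V replicate 1 but no more than 0.504 CPM elsewhere. Tagln, an actin-binding protein named after its values were seen, was also lower in every G328V library than in any WT library. It had at most 0.293 CPM anywhere and an unadjusted edgeR p of 0.167.

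**Figure D4:**
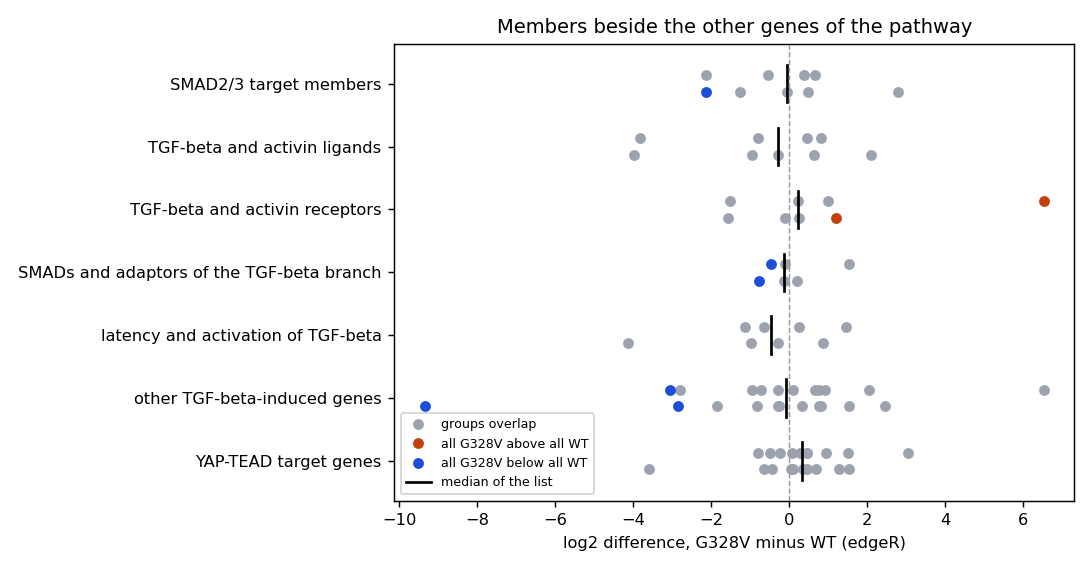
Log2 difference, G328V minus WT, of every tested gene of the pathway lists, with a bar at each list's median. Orange and blue points are genes whose groups did not overlap; the Lox value near -9 rests on 0 counts in G328V and is not a measured size.

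YAP and TEAD target genes were described because Ctgf and Cyr61 belong to them. Of 20 others tested, 14 were positive and 6 negative, with a median log2 difference of 0.32, and edgeR and DESeq2 called 0. Crim1, a membrane protein that binds BMPs, had a difference of 1.27 (standard error 0.50) and an unadjusted edgeR p of 0.0416, the only one under 0.05. For Ccdc80 and Nt5e the differences were 3.06 and 1.54 (standard errors 1.67 and 0.98). The groups overlapped for all 20.

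Markers of fibroblasts and pericytes, cells rich in matrix products, were unevenly present. Of 12 listed genes, 9 were tested, 7 positive and 2 negative, and edgeR and DESeq2 called 0, with 1 at an unadjusted edgeR p under 0.05, Rgs5. Their summed level measured 101, 141 and 314 CPM for G328V 1, 2 and 3, against 23.3, 28.2 and 535 CPM for WT 1, 3 and 70A. WT replicate 70A, the highest in Thbs1 and the second highest in Ctgf, had the highest sum, of which Col3a1 gave 455 CPM. In G328V replicate 3, the highest in Ctgf, Rgs5, a pericyte marker, gave 299 CPM of the sum. The median of the 9 tested markers, each as log2 CPM minus its mean, ordered the libraries otherwise, at 1.47, 0.28 and -2.93 for G328V 1, 2 and 3, against -1.49, -1.59 and 2.37 for WT 1, 3 and 70A. WT replicate 70A was thus highest by both measures, and G328V replicate 3 was lowest by the median. Among the other markers, Pdgfrb reached 75.9 CPM in G328V replicate 2 and 43.2 CPM in WT replicate 70A, Twist1 spanned 8.17 to 30.8 CPM, and Thy1 reached 17.2 CPM. Col1a1 reached 8.88 CPM, Fap 4.48 CPM, Des 1.88 CPM and Lum 1.36 CPM in their highest libraries, while Col1a2, Dcn and Acta2 stayed at or below 0.769 CPM. The part of such cells in the values of Ctgf and Thbs1 was not tested. Endothelial markers summed to 8.43 to 97.9 CPM and microglia and macrophage markers to 1.80 to 81.2 CPM, the latter mostly Cd68, with Cx3cr1 at 0 in 4 libraries.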

How the data were processed

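The authors deposited an HTSeq table of whole-number counts per gene symbol, not normalized, and a Cufflinks table of estimated counts of fragments, per the file headers and names. The submitters' processing notes name mm10, FastQC 0.11.3, TopHat2 2.0.13 and Bowtie2 2.2.1 without their roles; strand setting and annotation are not stated. The labels mention a TruSeq kit as well as a Pico kit. A read pair gave close to 2 counts (1.95 to 1.96 per fragment in the median), so counts are not independent molecules.

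The test on HTSeq counts was that of edgeR 4.0.16 under R 4.3.3 (quasi-likelihood F-test, legacy robust fit, TMM, filterByExpr with a minimum count of 10, no covariate), with Benjamini-Hochberg adjustment over 14643 genes. Each standard error is the log2 difference over the root of F, and gave the 95% interval. Alternatives were DESeq2 1.42.0, limma 3.58.1, other scalings, filters, the Cufflinks values rounded to whole numbers, the replicate number as a block and leaving out each library. The edgeR script was tested on simulated data. Gene positions are from GENCODE vM21 (GRCm38). Promoter stretches stop before any annotated exon of the gene.

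All members are described. From other lists, up to 3 genes with the smallest edgeR p were named, and for each member with a mean of at least 1 CPM, the 2 genes of closest profile. A gene that this rule names among the corepressor partners is not reported here. Beyond that rule, Smad3, Smad4, Thbs2, Nov, Tagln, Rnf111 and the markers given as values were chosen after their values were seen. The members and lists were chosen with earlier results of these data known.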

Additional observations from a re-analysis of the deposited data

How the results depend on the processing

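No alternative brought any of the 9 genes past the threshold, and the sign of Pmepa1, Cyr61, Thbs1, Ski and Skil held under all 15. Over all genes edgeR and limma-voom called 0 under every alternative, and DESeq2 called 173. The median log2 difference of the 9 genes ranged from -0.73 to 0.20 when 1 library was left out. With 1 library left out, the difference of Ctgf ranged from -2.49 (without G328V replicate 3) to 3.21 (without WT replicate 70A), and that of Tgfbi from -2.86 (without G328V replicate 3) to 0.86 (without WT replicate 3). That of Ltbp2 ranged from -7.79 (without G328V replicate 2) to 1.41 (without WT replicate 3), and was -0.13 without WT replicate 1 and -2.10 with limma-voom. That of Tgif1 ranged from -0.22 (without G328V replicate 2) to 0.17 (without WT replicate 70A), and was 0.09 without G328V replicate 1 and 0.07 with total-count scaling. Fewer libraries enter when 1 is left out, and the cause of the other changes was not tested. With a filter of at least 1 CPM in 3 libraries, Ltbp2 was not tested.

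The groups share the replicate numbers 1 and 3 only. Deviations from the group means, across genes, correlated at 0.18 and 0.23 between the same-numbered libraries. Between libraries of unlike number the correlations ran from -0.32 to 0.20, with 0.17 for G328V replicate 2 and WT replicate 1. Nothing in the labels says that a number marks a shared source. With the replicate number as a block edgeR called 0 genes, and the differences of Tgfbi, Ltbp2 and Tgif1 were 0.20, -7.16 and 0.00. G328V replicate 2 and WT replicate 70A share no number with the other group. All differences under the block, and their p-values, therefore rest on the libraries numbered 1 and 3. The block also moved the difference of Ctgf from 0.66 to 3.15 and that of Thbs1 from -2.12 to -1.08. Their unadjusted p-values in edgeR's quasi-likelihood test were then 0.0219 and 0.0454, and neither passed after adjustment.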

Other observations

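Of 12 tested relatives of these genes, 4 were positive and 8 negative in G328V, edgeR and DESeq2 called 0, and 1 had an unadjusted edgeR p under 0.05. That gene, Tgif2, a corepressor related to Tgif1, measured 62.8, 57.0 and 57.4 CPM for G328V 1, 2 and 3, against 153, 89.6 and 79.9 CPM for WT 1, 3 and 70A. Every G328V library was below every WT library, with a log2 difference of -0.86 and a standard error of 0.31. Thbs2, the closest relative of Thbs1, measured 31.0, 54.2 and 740 CPM over the G328V libraries against 3.07, 623 and 1400 CPM over the WT ones, in the same order, so G328V replicate 3 and WT replicate 3 were high for Thbs2 but not for Thbs1. Nov, a further CCN gene, reached 119 CPM in WT replicate 3 and spanned 2.27 to 42.6 CPM elsewhere.

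Of 12 partners of the SKI and TGIF corepressors, 4 were positive and 8 negative, with 0 called by edgeR or DESeq2 and 0 at an unadjusted edgeR p under 0.05. Rnf111, a ubiquitin ligase for SKI and SKIL named after its values were seen, spanned 89.9 to 99.4 CPM in G328V and 100 to 111 CPM in WT. Its groups did not overlap, as for 9.7% of all tested genes. Its log2 difference was small, at -0.16 (standard error 0.19), with an unadjusted edgeR p of 0.442. For the ubiquitin ligases Wwp1 and Nedd4l the differences were -0.64 and 0.74 (standard errors 0.39 and 0.52).

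Immediate early genes, a class to which Cyr61 belongs, had 8 positive and 7 negative differences among 15 tested, and edgeR and DESeq2 called 0. Fos measured 11.3, 30.3 and 14.5 CPM for G328V 1, 2 and 3, against 5.41, 8.30 and 5.69 CPM for WT 1, 3 and 70A, with no overlap and an unadjusted edgeR p of 0.0230. G328V replicate 2 was the highest library for both Fos and Cyr61. Jun differed the other way, by -1.89 with a standard error of 0.66, with 194 CPM in WT replicate 1. Its groups overlapped, with WT replicate 3 at 33.8 CPM, just below G328V replicate 2 at 34.0 CPM.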
